A study of Caenorhabditis elegans with 11 samples.

Results

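The genes described here are 10 genes of lipid metabolism in the nematode Caenorhabditis elegans, chosen by name: lips-6, lips-7, lips-9, lips-11, acdh-6, hacd-1, acs-7, acs-20, vit-6 and cpt-3. They account for 12 of the 1106 entries, and 10 of the 939 distinct genes, in 6 deposited tables of genes that the authors selected as higher or lower after knockdown of a splicing factor. RNA of whole worms was sequenced after RNA interference (RNAi) by feeding. The clones target 3 tri-snRNP components of the spliceosome, prp-6, prp-8 and prp-31, or, as the control, gfp. N2 (wild type) and the nonsense-mediated decay mutant smg-1(r861), strain TR1331, each gave 4 libraries of L3 larvae that had been fed the clones for 24 h at 20 °C. The mutant glp-4(bn2), strain SS104, in which germline proliferation is blocked at the restrictive temperature, gave 3 libraries (gfp and 2 knockdowns, without prp-6) of 5-day adults held at 25 °C, fed OP50 bacteria for 72 h and the clones for 48 h. The titles of these adult libraries say L3 while their stage field says adult, and the tables call the strain glp-1 while the columns say glp-4. Worms of all groups, controls included, ate a bacterial RNAi clone, and the smg-1 and glp-4 controls carry the mutation too.

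Fatty acids are released from stored fat by lipases, activated to acyl-CoA by acyl-CoA synthetases, carried into mitochondria through carnitine palmitoyltransferases and shortened by beta-oxidation. In C. elegans the intestine is the main fat store, and the hypodermis, the epidermal layer that makes the cuticle, also needs activated long-chain fatty acids for its barrier. Vitellogenins are yolk lipoproteins that the adult hermaphrodite intestine makes and passes to oocytes.

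Each group had 1 library, so the differences described have no replicates behind them and were not tested. Values are the authors' FPKM, fragments scaled to transcript length and to mapped fragments. A fold is the ratio of FPKM + 1 in a knockdown to FPKM + 1 with gfp in the same strain, which understates the change of low genes. Read depth is labelled as a lower bound common to every library, so the depth behind a single value is unknown. A gene outside the tables has no value here, so 8 of the 10 genes can be read in a single strain, and lips-9 and hacd-1 in N2 and smg-1. The authors picked the entries on the pooled knockdowns of a strain against gfp, with an unadjusted P of at most 0.01 in every entry, so lying in a higher or lower table is a condition of having a value. The target prp-31 stood at 25.3 FPKM with its own clone in N2 against 40.6 with gfp, and at 24.0 against 31.4 in smg-1. With the other clones prp-31 was above gfp, at 132.6 FPKM (prp-6) and 143.8 (prp-8) in N2. In smg-1 these values were 95.3 and 121.9. The other targets were not analysed here. In bulk RNA of whole worms, fewer cells of a type and less RNA per cell cannot be told apart.

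The genes lie on chromosomes II (4 genes), III (2), IV (3) and V (1). The tables give an interval for each but no genome build is given in the sources used here. Of the 789 distinct table genes that have a gene of the same name on the same chromosome in the WBcel235 annotation of Ensembl release 115, 786 have a deposited interval that overlaps it. For the minus-strand genes lips-6, lips-9, lips-11 and acs-20 the deposited interval is a single exon at the gene's start. It equals coding exon 1 of lips-6 (chromosome IV, 12015475 to 12015659), of lips-9 (II, 12935092 to 12935357) and of lips-11 (II, 1110805 to 1110992), and exon 1 of acs-20 (IV, 12398554 to 12398706). For acs-20 these 153 bases are 2.32 percent of the annotated gene. The intervals of hacd-1 (V, 1460367 to 1461614), acs-7 (II, 9292017 to 9294041), vit-6 (IV, 8261145 to 8266463), cpt-3 (III, 2082819 to 2088272) and acdh-6 (III, 8561185 to 8562972) overlap all exons of the first annotated transcript, and that of lips-7 (II, 553095 to 554786) overlaps 5 of 6. The annotated lips-7 shares 179 bases with mlt-10 on the same strand, though their deposited intervals share 0. The annotated acs-7 overlaps C01G6.9 on the opposite strand. No source used here says whether the counting used strand, so the value of acs-7 is uncertain to that extent. The files do not say whether the FPKM of lips-6, lips-9, lips-11 and acs-20 refers to the single listed exon or to the whole transcript, so levels of these 4 genes are uncertain in scale.

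**Figure D1:**
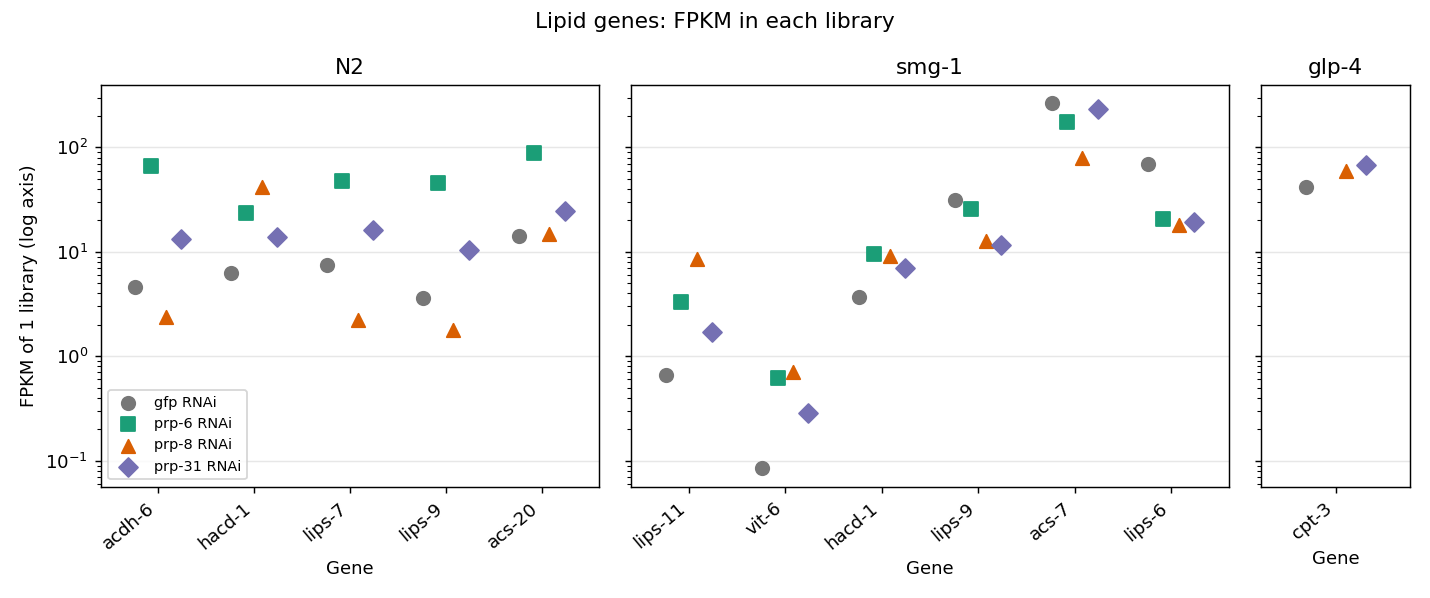
FPKM of each library (log axis) for the listed lipid genes of N2, smg-1 and glp-4, with 1 point per library and no error bars, since each group has 1 library. In N2 the prp-6 library is the highest for 4 of 5 genes and the prp-8 library is the highest for hacd-1, whereas lips-6 in smg-1 has 3 knockdown points close together below gfp.

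The first comparison asks how wild-type larvae differ when each tri-snRNP protein is depleted. The N2 tables held 5 of the lipid genes, all in the higher one, and they followed a pair of patterns. The lipases lips-7 and lips-9, the acyl-CoA dehydrogenase gene acdh-6 and the acyl-CoA synthetase gene acs-20 were highest with prp-6 RNAi, intermediate with prp-31 and near or below gfp with prp-8. The dehydrogenase gene hacd-1 was instead highest with prp-8.

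Among the lipase-like genes, lips-9 had 3.59 FPKM in the gfp library, 45.5 in that of prp-6, 1.77 in that of prp-8 and 10.4 in that of prp-31. This is 10.1-fold higher with prp-6, 2.48-fold higher with prp-31 and 1.66-fold lower with prp-8. Its relative lips-7 had 7.50 FPKM in the gfp library, 47.3 in that of prp-6, 2.25 in that of prp-8 and 16.1 in that of prp-31. The same order of libraries held, and lips-7 went furthest below gfp with prp-8, at 2.62-fold lower, while the prp-6 library was 5.68-fold and the prp-31 library 2.01-fold above it. Both encode predicted lipases of a family named for its likeness to triacylglycerol lipases.

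The gene acdh-6 encodes an acyl-CoA dehydrogenase, the class of enzyme that opens each beta-oxidation cycle. It had 4.57 FPKM in the gfp library, 66.3 in that of prp-6, 2.37 in that of prp-8 and 13.3 in that of prp-31. It thus spanned the widest range of the 10 genes over the knockdowns of a strain, 4.32 on the log2 scale between prp-6 and prp-8. With prp-6 its log2 fold of 3.59 was above 97.3 percent of the N2 higher table, and with prp-8 its log2 fold of −0.73 was above 16.1 percent. In the authors' deposited table, acdh-6 had a pooled log2 fold change of 2.42 with a q-value of 0.0403.

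The gene acs-20 encodes an acyl-CoA synthetase related to mammalian fatty acid transport protein FATP4 and is known for its part in the cuticle barrier. It had 14.2 FPKM in the gfp library, 87.5 in that of prp-6, 14.8 in that of prp-8 and 24.9 in that of prp-31. The prp-8 library was level with gfp, at a log2 fold of 0.05. It becomes −0.03 on the scale of the pooled columns, meaning with a shift of −0.08 added. That shift is the median difference between deposited pooled and single-library log2 folds in N2, the same for every gene. The prp-6 library was 5.82-fold and the prp-31 library 1.70-fold above gfp.

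The gene hacd-1 encodes a hydroxyacyl-CoA dehydrogenase, an enzyme of a later beta-oxidation step. It had 6.33 FPKM in the gfp library, 23.8 in that of prp-6, 41.9 in that of prp-8 and 13.9 in that of prp-31. All knockdown libraries lay above gfp, by 3.38-fold, 5.85-fold and 2.04-fold in that order. With prp-8 it was above 90.7 percent of the N2 higher table and with prp-6 above 43.0 percent, the reverse order to acdh-6.

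With prp-6 RNAi all 5 genes were at least 2-fold higher, where 83.9 percent of the N2 higher table was, so the count alone does not set them apart. With prp-31 it was 4 of 5, against 28.9 percent of the table. With prp-8 it was hacd-1 alone, against 42.3 percent, and lips-7 was at least 2-fold lower, as were 11.2 percent of the table. Counted in every knockdown alike, 1 of the 5 (hacd-1) was at least 2-fold higher, where 2.69 percent of the table was. With the N2 median shift of −0.08 added, the prp-31 log2 fold was 0.95 for hacd-1 and 0.92 for lips-7. The count with prp-31 was then 2 of 5 and that in every knockdown 0 of 5. The shift is not a deposited value of either gene. For hacd-1 the deposited pooled log2 fold was 2.05, above the 1.91 of the averaged single libraries. The medians of the 5 genes on the log2 scale were 2.54 (prp-6), −0.73 (prp-8) and 1.03 (prp-31), beside table medians of 2.05, 0.65 and 0.67. With prp-8, 3 of the 5 lay below gfp, as did 31.8 percent of the table. The ratio of prp-6 to prp-8, on the FPKM + 1 scale, was 20.0 for acdh-6 (rank 28 of the table from the top), 16.7 for lips-9 (36), 14.9 for lips-7 (44), 5.62 for acs-20 (136) and 0.578 for hacd-1 (344).

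For the genes of the first pattern the fold averaged over the knockdowns was below 2-fold once the prp-6 library was left out. How much of the N2 higher table did the same was not counted. The table's median log2 folds, 0.65 (prp-8) and 0.67 (prp-31), were each below 2-fold too, so this drop may not set the genes apart. With all knockdowns averaged, the log2 fold was 2.34 for acdh-6, 2.14 for lips-9, 1.43 for lips-7 and 1.51 for acs-20. Without the prp-6 library these became 0.66, 0.62, 0.26 and 0.45. For hacd-1 it was 1.91 with all knockdowns and between 1.44 and 2.21 with any 1 of them left out. The deposited q-values, from the authors' deposited table, were 0.0509 for hacd-1, 0.0613 for lips-9, 0.173 for acs-20 and 0.288 for lips-7, and 1 of the 5 genes was below 0.05, as were 8.31 percent of the table.

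The N2 genes with the most similar folds were found among 194 publicly named table genes without a 0 in any library, by the root mean square difference of log2 folds over the 3 knockdowns. For lips-9 they were wrt-8 (0.0929), col-173 (0.146) and acdh-6 (0.15), and for acdh-6 they were grl-5 (0.123), lips-9 (0.15) and col-173 (0.195). For acs-20 they were wrt-4 (0.138), mlt-10 (0.142) and grd-2 (0.144), and for lips-7 clec-229 (0.167), tag-297 (0.175) and agmo-1 (0.183). The names wrt, grl and grd mark hedgehog-related genes, col a cuticle collagen, mlt a moulting gene and agmo-1 an alkylglycerol monooxygenase, an enzyme of ether lipid breakdown. For hacd-1 they were a different set: the kinesin cargo adaptor gene kca-1 (0.0457), the checkpoint kinase gene atl-1 (0.157) and aly-1 (0.354), an mRNA export factor gene.

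Of 8 hypodermal markers, 3 (rol-6, sqt-1 and sqt-3, all cuticle collagens) were in the N2 tables, all in the higher one. Each was highest with prp-6 RNAi. The median log2 fold of that table was itself largest for this clone, at 2.05 (prp-6), 0.65 (prp-8) and 0.67 (prp-31). A peak with prp-6 therefore does not set these 3 markers apart. Their summed level was 578 FPKM in the gfp library, 4409 in that of prp-6, 721 in that of prp-8 and 878 in that of prp-31, and none of these 3 was at 0 in a library. Of the 3, rol-6 was near gfp with prp-8 and higher with prp-31, at 138 FPKM (gfp), 134 (prp-8) and 282 (prp-31). Both sqt-1 and sqt-3 were above gfp and nearly level between those clones, at 238 and 237 FPKM against 170 for sqt-1 and at 349 and 359 against 269 for sqt-3. The other hypodermal markers were not in the N2 tables and so have no value here. None of the 8 was in the tables of smg-1 or glp-4. The part of these markers in the values of lips-7, lips-9, acdh-6 and acs-20 was not tested.

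**Figure D2:**
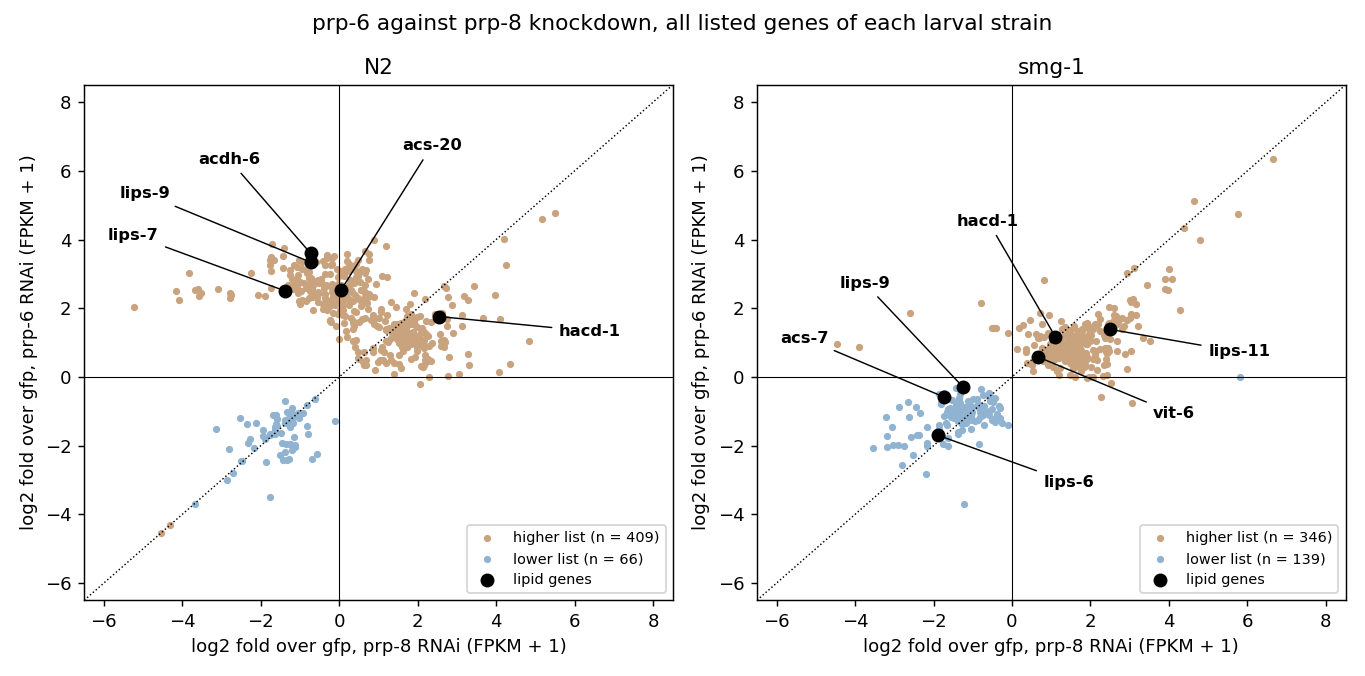
Log2 fold over gfp with prp-6 RNAi (vertical axis) against prp-8 RNAi (horizontal axis) for every gene of the N2 and smg-1 tables, on the FPKM + 1 scale, with the lipid genes in black and a dotted line where both are equal. In N2, acdh-6, lips-9, lips-7 and acs-20 lie far above the line and hacd-1 below it, whereas in smg-1 vit-6, hacd-1 and lips-6 lie close to it.

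The smg-1 larvae ask the same question where nonsense-mediated decay is lost, the pathway that destroys mRNAs with premature stop codons. The smg-1 tables held 6 of the lipid genes, with lips-11, hacd-1 and vit-6 in the higher and lips-6, lips-9 and acs-7 in the lower. The lipase-like genes were thus on both sides.

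The gene lips-6 had 69.7 FPKM in the gfp library, 20.8 in that of prp-6, 18.1 in that of prp-8 and 19.4 in that of prp-31. The 3 knockdown libraries were nearly level, with log2 folds of −1.70, −1.89 and −1.79, a range of 0.19. Leaving out any 1 of them moved the log2 fold of their mean between −1.84 and −1.74. With prp-31 it ranked 7 from the bottom of the 139 genes in the lower table, where the median log2 fold was −0.70. In the authors' deposited table its q-value was 0.00821, with a pooled log2 fold change of −1.90.

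A second predicted lipase gene, lips-9, had 31.5 FPKM in the gfp library, 25.6 in that of prp-6, 12.7 in that of prp-8 and 11.6 in that of prp-31. It was 2.38-fold lower with prp-8 and 2.59-fold lower with prp-31. With prp-6 it was 1.22-fold lower, the second smallest change of the lower table (rank 138 of 139). The authors' deposited q-value was 0.0932.

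The gene acs-7 encodes an acyl-CoA synthetase known for its part in building ascaroside pheromones. It was the most abundant of the 10 genes, at 265 FPKM in the gfp library, 176 in that of prp-6, 78.9 in that of prp-8 and 232 in that of prp-31. The prp-8 library stood apart at 3.33-fold lower, while prp-6 was 1.5-fold and prp-31 1.14-fold lower. Without the prp-8 library the log2 fold of the mean went from −0.70 to −0.38. The authors' deposited q-value was 0.286.

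The lipase-like gene lips-11 had 0.663 FPKM in the gfp library, 3.33 in that of prp-6, 8.46 in that of prp-8 and 1.71 in that of prp-31. It was highest with prp-8, at 5.69-fold, against 2.61-fold with prp-6 and 1.63-fold with prp-31. Without the prp-8 library the log2 fold of the mean went from 1.73 to 1.08. The authors' deposited q-value was 0.161.

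The beta-oxidation gene hacd-1 had 3.68 FPKM in the gfp library, 9.47 in that of prp-6, 9.09 in that of prp-8 and 6.94 in that of prp-31 in smg-1. It was 2.24-fold, 2.16-fold and 1.70-fold higher, with no separate peak at prp-8. The authors' deposited q-value was 0.122.

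The yolk gene vit-6 was the least abundant, at 0.0844 FPKM in the gfp library, 0.624 in that of prp-6, 0.715 in that of prp-8 and 0.286 in that of prp-31. All knockdowns lay above gfp, by 7.39-fold, 8.47-fold and 3.39-fold in plain FPKM, but all values were below 1 FPKM, so that with FPKM + 1 the folds were 1.5, 1.58 and 1.19. In the authors' deposited table the pooled log2 fold change was 2.56 with a q-value of 0.0187. It was the single intestinal marker, of 16, in these tables.

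In the smg-1 higher table, 2 of the 3 genes (hacd-1 and lips-11) were at least 2-fold higher with prp-6, against 41.0 percent of the table, and the same 2 with prp-8, against 85.3 percent. With prp-31 it was 0 of 3, against 6.65 percent. In the lower table, 1 of 3 (lips-6) was at least 2-fold lower with prp-6, against 56.1 percent, all 3 with prp-8, against 71.2 percent, and 2 with prp-31 (lips-6 and lips-9), against 39.6 percent. At least 2-fold lower in every knockdown was lips-6, as were 18.7 percent of the lower table, and 0 of the 3 higher genes reached 2-fold in every knockdown, where 4.62 percent of the table did. In the authors' deposited tables a q-value below 0.05 stood for vit-6 among the 3 higher genes, against 37.6 percent of that table, and for lips-6 among the 3 lower genes, against 26.6 percent. Over all 6 tables, 3 of the 12 entries had such a q-value, against 19.4 percent of the entries.

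Among 204 named smg-1 genes with no value of 0, the folds nearest to those of lips-6 belonged to the histone genes his-2 (0.306), his-31 (0.384) and his-4 (0.43), at larger distances than for the other members. Histone genes have near-identical copies that can share reads, so the values of single copies are uncertain. For acs-7 they were pmp-5 (0.0984), a gene of the peroxisomal ABC transporter family, btb-21 (0.208) and the epoxide hydrolase gene ceeh-2 (0.268). For lips-11 they were kca-1 (0.0946), phat-5 (0.177) and ugt-39 (0.214). For lips-9 they were grl-5 (0.233), rla-2 (0.315) and mlt-10 (0.347), for hacd-1 pcp-3 (0.175), pro-2 (0.178) and uaf-2 (0.187), and for vit-6 col-56 (0.053), mks-6 (0.142) and gab-1 (0.156). Thus kca-1, nearest to hacd-1 in N2, was nearest to lips-11 in smg-1. With gfp, lips-11 had 0.663 FPKM and vit-6 0.0844, so their matches rest on folds that the added 1 FPKM compresses. With 0.1 FPKM added the log2 folds of lips-11 were 2.17 (prp-6), 3.49 (prp-8) and 1.24 (prp-31), against 1.38, 2.51 and 0.70 with 1 FPKM. The ribosomal RNA gene rrn-2.1 also varied over the smg-1 libraries although these were enriched for poly(A) RNA, from 4034 FPKM (gfp) to 36300 (prp-6), 34630 (prp-8) and 12190 (prp-31). Its part in these values was not tested.

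**Figure D3:**
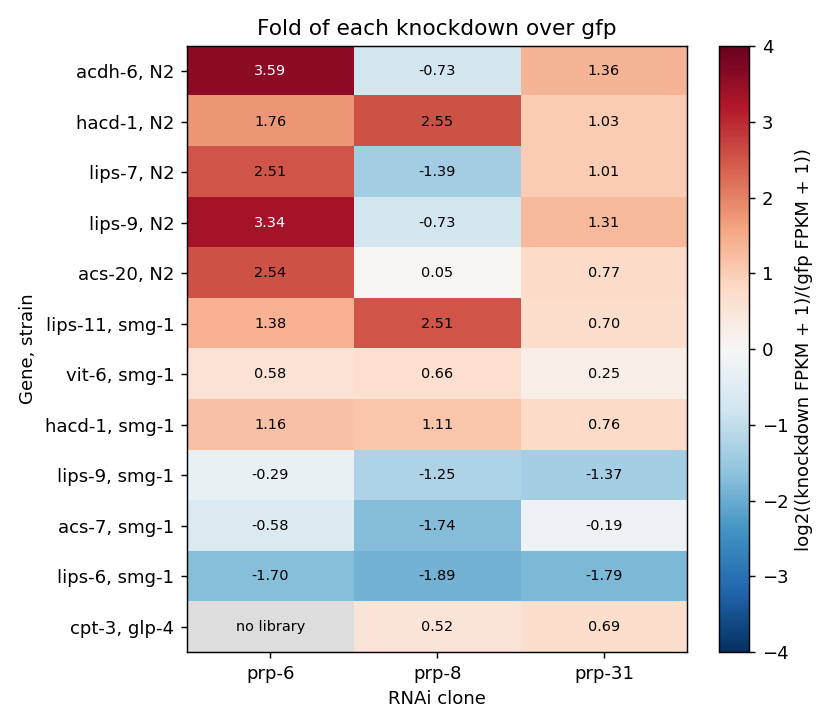
Log2 of knockdown FPKM + 1 over gfp FPKM + 1 for the 12 entries, with red above and blue below gfp and gray where no library exists. The N2 genes other than hacd-1 change colour between prp-6 and prp-8 or reach 0.05 with prp-8, while each smg-1 gene keeps 1 colour over the 3 clones. With prp-8, 31.8 percent of the N2 higher table was below gfp. In smg-1 at most 5.49 percent of the higher table and 99.3 percent of the lower table was below gfp with any clone.

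The genes lips-9 and hacd-1 were listed in both larval strains, whose tables may have been normalized separately, so levels set across strains are a description. The lipase gene lips-9 was in opposite lists. With gfp it had 3.59 FPKM in N2 and 31.5 in smg-1, 7.08-fold higher on the FPKM + 1 scale. With prp-6 the values were 45.5 and 25.6 FPKM, with prp-8 1.77 and 12.7, and with prp-31 10.4 and 11.6. The order of the libraries therefore differed: prp-6, prp-31, gfp, prp-8 in N2 and gfp, prp-6, prp-8, prp-31 in smg-1, with the last 2 nearly level. Of the 147 genes in tables of both strains, 6 were in opposite lists, all higher in N2 and lower in smg-1. These were lips-9, grl-5, mlt-10, C38C6.3, H23N18.5 and ZC434.3, and their smg-1 gfp level was 6.02-fold to 9.76-fold above that of N2. Over the 147 genes the median of that ratio was 1.08, and 17 genes, these 6 among them, were at least 2-fold above N2. No other gene reached 6-fold, a cut just below the lowest of the 6. The gfp value of each strain enters the choice of its lists, so the ratio and the lists are not independent.

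For hacd-1 the direction was the same in both strains and the levels were lower in smg-1. With gfp it had 6.33 FPKM in N2 and 3.68 in smg-1, with prp-6 23.8 and 9.47, with prp-8 41.9 and 9.09, and with prp-31 13.9 and 6.94. The log2 fold in N2 exceeded that in smg-1 by 0.60 with prp-6, by 1.44 with prp-8 and by 0.26 with prp-31, with no replicates to test these differences.

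**Figure D4:**
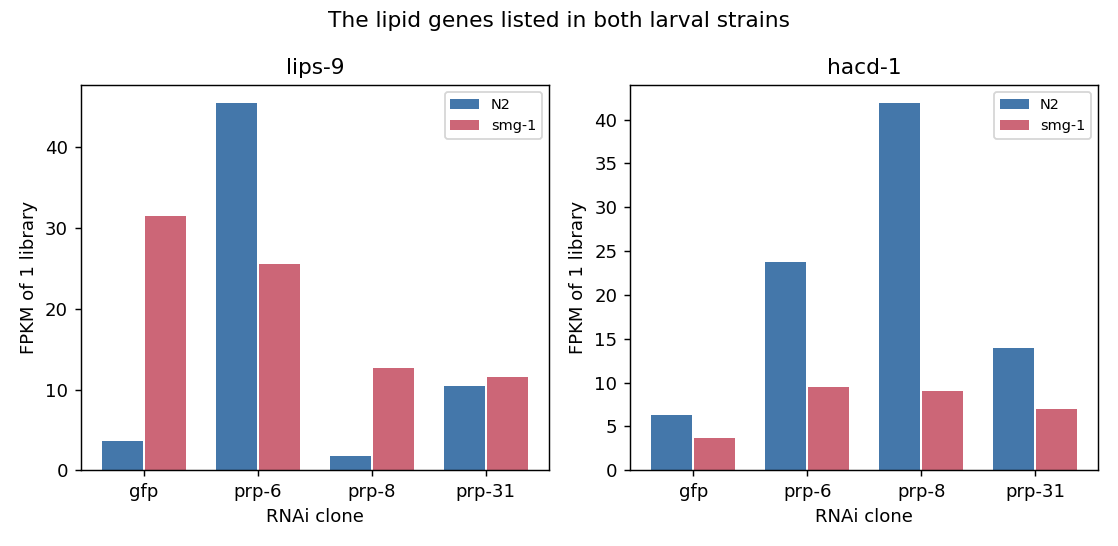
FPKM of 1 library per bar for lips-9 and hacd-1 by RNAi clone, in N2 (blue) and smg-1 (red), without error bars because each group has 1 library. For lips-9 the gfp bar is 3.59 FPKM in N2 and 31.5 in smg-1, and for hacd-1 the prp-8 bar is 41.9 FPKM in N2 and 9.09 in smg-1.

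In adults of glp-4, given the prp-8 or the prp-31 clone, cpt-3 was the single listed gene of the 10. It encodes a protein of the carnitine palmitoyltransferase family, whose enzymes bring long-chain fatty acids into mitochondria. It had 41.3 FPKM in the gfp library, 59.7 in that of prp-8 and 67.3 in that of prp-31. Both knockdown libraries were above gfp, by 1.43-fold and 1.61-fold, short of 2-fold, where 25.9 percent of the glp-4 higher table reached 2-fold with prp-8 and 31 percent with prp-31. In the authors' deposited table the pooled log2 fold change was 0.83 with a q-value of 0.571. The nearest folds among 90 named glp-4 genes were those of ilys-3 (0.129), cth-1 (0.139) and ckb-4 (0.148). The same ribosomal RNA gene stood at 397 FPKM (gfp), 102800 (prp-8) and 3716 (prp-31) in glp-4, and its part in the value of cpt-3 was not tested.

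A wider list of lipid genes, taken by name pattern from lipases, acyl-CoA synthetases, beta-oxidation, vitellogenins, fatty acid synthesis, lipid transport, phospholipid and sphingolipid metabolism and lipid regulators, had 20 entries in the tables, of which 8 were not among the 10 genes. At least a 2-fold change in the direction of its table, in every knockdown, was seen for 1 of 6 entries in the N2 higher table (hacd-1, which is below 2-fold with prp-31 on the scale of the pooled columns), beside 2.69 percent of that table. In smg-1 it was seen for 1 of 4 in the higher table (lpd-6), beside 4.62 percent, and for 1 of 5 in the lower (lips-6), beside 18.7 percent. In glp-4 it was seen for 0 of 3 in the higher and 0 of 2 in the lower table, beside 5.17 and 6.82 percent.

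In N2 the entry outside the 10 genes was nhr-25, a nuclear receptor gene of the epidermis and moult, which had 6.55 FPKM in the gfp library, 23.5 in that of prp-6, 10.3 in that of prp-8 and 10.7 in that of prp-31. It was highest with prp-6, like 4 of the 5 lipid genes there. The median log2 fold of the N2 higher table was also largest with prp-6, at 2.05 against 0.65 (prp-8) and 0.67 (prp-31). This likeness therefore does not set nhr-25 apart. In smg-1 lpd-6, whose yeast and human relatives act in ribosome assembly although its name stands for lipid depleted, had 27.6 FPKM in the gfp library, then 73.4 (prp-6), 80.4 (prp-8) and 57.3 (prp-31). It was more than 2-fold higher in each. The phosphoethanolamine methyltransferase gene pmt-2, which makes phosphatidylcholine precursors, had 133 FPKM in the gfp library, then 62.0, 51.1 and 117 in the same order.

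The transporter gene pmp-5 had 15.9 FPKM in the gfp library, then 11.1 (prp-6), 3.68 (prp-8) and 14.6 (prp-31) in smg-1. Like acs-7 it was far lower with prp-8 than with the other clones, at 3.62-fold below gfp. The median log2 fold of the smg-1 lower table was also lowest with prp-8, at −1.32 against −1.08 (prp-6) and −0.70 (prp-31). At least 2-fold lower with prp-8 were 71.2 percent of that table. In glp-4 the glucocerebrosidase-like gene gba-4 had 11.4 FPKM in the gfp library, 20.5 in that of prp-8 and 10.9 in that of prp-31, and the choline kinase gene ckb-4 had 13.3, 17.6 and 24.8. Of this pair gba-4 was highest with prp-8 and ckb-4 with prp-31. The short-chain dehydrogenase gene dhs-8 had 5.35, 2.19 and 1.63 FPKM, and the yolk receptor gene rme-2, which oocytes use to take up vitellogenin, had 16, 1.95 and 13.9. The gene rme-2 is also 1 of 7 germline markers, of 19, in the glp-4 tables, all in the lower one. Their summed level, rme-2 included, was 191 FPKM in the gfp library, 24.0 in that of prp-8 and 148 in that of prp-31. All 88 entries of that table were below gfp with each clone, at median log2 folds of −1.94 (prp-8) and −0.49 (prp-31). A sum that is lower, most of all with prp-8, therefore does not set these markers apart. The part of these markers in the value of rme-2 was not tested.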

How the data were processed

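Poly(A)-enriched RNA of whole worms was sequenced in paired reads of 73 bp, per the labels' protocols. The submitters' processing notes name Cufflinks and Cuffdiff. Versions, aligner and genome build are, in the sources used here, not given. The authors deposited, per the file headers, FPKM values (1 for each library and pooled ones), with a log2 fold change and the P-value and q-value of each listed gene. A test statistic, a score deposited in 5 of the tables, was not used. Groups came from the sample titles, with 1 library each, so p-values were not computed. Folds used a pseudocount of 1 FPKM, and at least 2-fold was counted. A member's nearest genes were the 3 with the smallest root mean square difference of log2 folds. The 10 genes, the lipid list, the marker lists and the naming rule were chosen with earlier results of these data known. Alternatives were pseudocounts of 0.1 and 5, a 1.5-fold threshold, a mean of at least 1 FPKM, the pooled scale and leaving out a library. The pooled scale shifts every log2 fold of a strain by the median difference between its deposited pooled and single-library log2 folds. The pooled scale for counts and the left-out library for averaged folds were chosen after seeing the data. The computations ran in Python 3.11.15 with pandas 2.3.3, numpy 2.4.6 and, for figures, matplotlib 3.10.9, and the code was tested on simulated data. No sequence of a member was used here.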

Additional observations from a re-analysis of the deposited data

Results flagged for a closer look

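The lipase-like gene lips-9 moved in opposite directions in N2 and smg-1 in 2 of the 3 clones. With prp-6 RNAi its log2 fold over gfp was 3.34 in N2 and −0.29 in smg-1, a difference of 3.63. With prp-31 RNAi it was 1.31 and −1.37, a difference of 2.68. With prp-8 it was below gfp in both strains, at −0.73 and −1.25. Of the 147 genes listed in both strains, 8 were above gfp in N2 and below it in smg-1 with prp-6, and 11 with prp-31. The lists that hold lips-9, higher in N2 and lower in smg-1, were chosen on these same libraries. Each lips-9 value comes from 1 library per group and the difference was not tested. The gfp libraries of the strains differ for this gene, at 3.59 and 31.5 FPKM, and enter every fold.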

How the results depend on the processing

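No paired analysis was possible because each group has 1 library. With 5 FPKM added, the number of genes at least 2-fold changed went from 2 to 1 with prp-8 and from 4 to 0 with prp-31 in N2, from 1 to 0 in every N2 knockdown, and from 3 to 1 with prp-6 in smg-1. With 0.1 FPKM added it went from 2 to 4 with prp-31 and from 1 to 3 in every knockdown in smg-1. At a 1.5-fold threshold it was 4 with prp-8 in N2, 4 with prp-31 and 3 in every knockdown in smg-1, and 1 with prp-31 in glp-4. The count in every knockdown was 4 in N2 without the prp-8 library, and in smg-1 2 without prp-6 and 3 without prp-31. On the scale of the pooled columns, chosen for the counts after seeing the data, the N2 count with prp-31 was 2 and that in every knockdown 0. In the other 48 recomputed counts the value stayed within 1.5 times. No fold of at least 2 for a single gene turned its direction. The log2 fold of vit-6 with prp-8 went from 0.66 to 2.14 with 0.1 FPKM added, and that of lips-9 over the smg-1 knockdowns from −0.89 to −1.31 without prp-6. Depth per library is unknown, which limits vit-6 and lips-11 most.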
